A study of Mus musculus with 9 samples.

Results

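The genes described are 8 ligands and receptors of the neurotrophin and GDNF families, Bdnf, Ntf3, Ntrk2, Ntrk3, Ngfr, Gdnf, Gfra1 and Ret, which were taken by symbol from the 54532 genes of the deposited table. Their expression was measured by RNA-seq in the lambdoidal junction, the tissue in which the maxillary, medial nasal and lateral nasal prominences meet and fuse to form the upper lip and primary palate. The tissue was taken from C57BL/6J mice on embryonic days E10.5, E11.5 or E12.5. Each stage had 3 libraries, each made from the pooled tissue of many embryos, so that differences between single embryos were not seen. The labels name no allele or treatment, and the groups are defined by stage. The depth was 16581009 to 20836804 counts per library.

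Neurotrophins are secreted survival and guidance factors for neurons and neural crest derivatives. Bdnf encodes the ligand of TrkB (Ntrk2) and Ntf3 that of TrkC (Ntrk3), both receptor tyrosine kinases, while Ngfr encodes p75, a receptor without kinase activity that binds all neurotrophins. In the related GDNF system, the ligand Gdnf binds the membrane-anchored co-receptor Gfra1, and the complex activates the receptor tyrosine kinase Ret. In the embryonic face, neurotrophins from epithelium and mesenchyme are known to support the ingrowing trigeminal axons, and p75 also marks migrating neural crest cells.

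RefSeq promoter windows on GRCm38.p6 were at hand for 6 of the 8 genes, and none was used for Ntrk3 and Ret. The 250 bases before the start site are shown for Ntf3, the ligand that rose between every pair of stages, and for Ngfr and Ntrk2, the receptors that rose together from E11.5 to E12.5. They are written 5′ to 3′ on the strand of the gene, and capitals mark GC boxes (GGGCGG, or CCGCCC on the other strand). Ntf3 has a second window, which is not shown. The windows lie at chr6:126166745-126166994 on the minus strand, chr11:95587699-95587948 on the minus strand and chr13:58806319-58806568 on the plus strand, respectively. Those of Ntf3 and Ngfr lie partly inside the gene models of the deposited table, which reach up to 126166910 and 95587735. The RefSeq starts used for these windows thus differ from the outermost starts of those models.
Ntf3: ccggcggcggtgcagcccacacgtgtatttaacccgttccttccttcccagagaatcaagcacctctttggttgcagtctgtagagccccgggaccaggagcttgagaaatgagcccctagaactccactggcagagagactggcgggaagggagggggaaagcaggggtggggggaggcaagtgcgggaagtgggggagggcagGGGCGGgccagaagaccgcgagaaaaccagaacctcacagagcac
Ngfr: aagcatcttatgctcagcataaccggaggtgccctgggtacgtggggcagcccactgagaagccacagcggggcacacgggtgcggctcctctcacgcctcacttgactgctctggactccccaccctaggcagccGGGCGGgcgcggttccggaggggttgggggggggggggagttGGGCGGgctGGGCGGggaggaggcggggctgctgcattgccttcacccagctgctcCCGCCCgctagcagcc
Ntrk2: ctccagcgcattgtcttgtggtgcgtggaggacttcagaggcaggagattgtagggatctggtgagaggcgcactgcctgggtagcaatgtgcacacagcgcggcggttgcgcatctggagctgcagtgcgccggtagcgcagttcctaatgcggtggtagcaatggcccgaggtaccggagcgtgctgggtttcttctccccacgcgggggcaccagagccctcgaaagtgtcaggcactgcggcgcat
The Ngfr window held 4 GC boxes and was 70.4% G and C, the Ntf3 window held 1 GC box and was 62.0% G and C, and the Ntrk2 window held none and was 62.8% G and C. Of all 32851 windows of this length, 32.7% held a GC box on either strand. The Ntf3 window was also the only one of the 14 windows of the 6 genes with the E-box CACGTG, found in 6.02% of all windows, and none of the 14 held the cAMP response element TGACGTCA, found in 1.55%. The TATA box TATAAA, searched on both strands and present in 12.4% of all windows, was found in 1 of the 14, which belongs to Gdnf. The 3 printed windows thus had no motif in common among the 4 searched. Bdnf has 7 of the 14 windows, because its transcripts start at several alternative first exons, and counts per gene do not separate them.

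The labelled tissue was checked first. Facial mesenchyme markers (Prrx1, Twist1 and 6 others) summed to 1134–2903 CPM and epithelial markers (Epcam, Cdh1 and 5 others) to 380–725 CPM over the 9 libraries, where CPM are counts scaled to the TMM-adjusted size of each library. The 5 forebrain markers summed to 193–272 CPM at E10.5, 88.7–97.0 CPM at E11.5 and 123–155 CPM at E12.5. Sox1 among them was at 37.4–57.4 CPM in all 3 E10.5 libraries and at most 1.89 CPM in any later library. The part of such tissue in the comparisons with E10.5 was not tested, for the 8 genes or for the genes of the lists below. E10.5 replicate 3 stood apart. The SD over genes of its log2 difference to replicates 1 and 2 was 0.711 and 0.703, against 0.392 between those libraries. Between libraries of E11.5 this SD was 0.373–0.418, and between those of E12.5 it was 0.494–0.591. Across genes, which are not independent replicates, E10.5 replicate 3 was lower the higher the GC content (Spearman's rho between GC content and the excess of the other library, 0.524 and 0.537). Its endothelial markers summed to 112 CPM, against 278–283 CPM in the other E10.5 libraries, its mesenchymal markers to 1134 against 1890–1903 CPM, and its epithelial markers to 693 against 380–434 CPM. Tests of the 8 genes against E10.5 are therefore also given with this library omitted.

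The 6 libraries of each pair of stages were compared by edgeR's quasi-likelihood test, adjusted by Benjamini-Hochberg over all genes tested. A gene is said to have risen or fallen where the adjusted p-value was at most 0.05, and to be a DEG where its log2 fold change was also 1 or more in either direction, the thresholds of the study. From E10.5 to E11.5, 3 of the 7 genes tested rose (Bdnf, Ntf3 and Gfra1), none fell and none was a DEG. Of all 15708 genes tested in this interval, 11.8% passed (6.19% rose and 5.58% fell) and 6.07% were DEGs (3.46% up and 2.61% down). The libraries of the stages did not overlap for 4 of the genes (Bdnf, Ntf3, Gdnf and Gfra1), as was so for 36.5% of all genes.

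Between E11.5 and E12.5, 4 of 8 genes rose (Ntf3, Ntrk2, Ngfr and Gdnf) and 2 fell (Bdnf and Ret), where 12.2% of all 15808 genes passed, 7.61% rising and 4.57% falling. Of these, 3 were DEGs, Ntrk2 and Ngfr upward and Ret downward, beside 5.1% of all genes (4.14% up and 0.962% down). For 6 of the genes the stages did not overlap, beside 35.3% of all genes. Over both intervals together, 2 of 8 genes rose (Ntf3 and Ntrk2), both as DEGs, and none fell. There, 24.6% of all 15899 genes passed (14% up and 10.5% down), 15% were DEGs (9.97% up and 5.08% down), and the stages did not overlap for 3 of the 8 genes (Ntf3, Ntrk2 and Ngfr) and 42.4% of all genes. The median log2 fold change of the tested genes of the group was 0.30 in the first interval, 0.52 in the second and 0.33 over both, beside −0.032, 0.019 and −0.0063 for all genes tested. These comparisons share libraries and are not independent of each other.

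**Figure D1:**
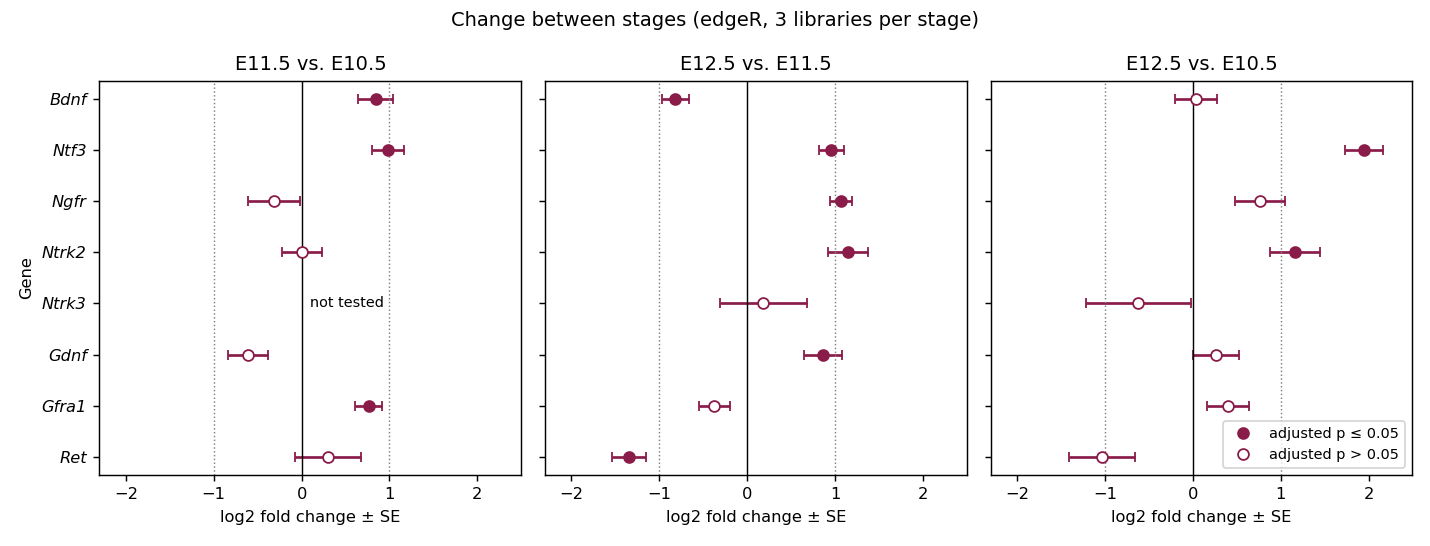
Log2 fold change with its standard error (x axis) of each of the 8 genes (y axis) in the 3 comparisons of stages, from edgeR on 3 libraries per stage. Filled points have an adjusted p-value of at most 0.05, open points do not, and dotted lines mark a log2 fold change of 1 in either direction; Bdnf lies at 0.84 and then −0.82, and Ntf3 at 0.98 and then 0.96.

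Among the ligands, Ntf3 rose at both steps. Ntf3 (ENSMUSG00000049107) lies on the minus strand of chromosome 6 of GRCm38, from 126101412 to 126166910. It was measured at 8.14, 8.11 and 5.92 CPM in E10.5 replicates 1, 2 and 3. At E11.5 the 3 libraries gave 15.3, 13.4 and 15.8 CPM, and at E12.5 they gave 30.4, 25.2 and 30.4 CPM. The libraries of the 3 stages did not overlap, and each stage lay above the one before it. The log2 fold change was 0.98 (SE 0.18, edgeR adjusted p = 0.0127) in E11.5 vs. E10.5 and 0.96 (SE 0.14, edgeR adjusted p = 0.00193) in E12.5 vs. E11.5. Over both intervals it was 1.95 (SE 0.22, edgeR adjusted p = 1.01e-04). The rise from E11.5 to E12.5 and that from E10.5 to E12.5 passed the test in all 15 alternative fits each. The first rise was lost without E11.5 replicate 1 (0.96, edgeR adjusted p = 0.0744) and without E11.5 replicate 3 (0.95, edgeR adjusted p = 0.0758), and it held when E10.5 replicate 3 was omitted (0.85, edgeR adjusted p = 4.669e-04), as did the rise over both intervals (1.81).

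Bdnf peaked at E11.5. The gene (ENSMUSG00000048482) lies on the plus strand of chromosome 2, from 109674700 to 109727007. It was measured at 10.02, 6.68 and 7.08 CPM in the E10.5 libraries, at 16.1, 13.8 and 13.4 CPM in the E11.5 libraries and at 7.72, 8.12 and 8.60 CPM in the E12.5 libraries. Every E11.5 library lay above all the others, while the E10.5 and E12.5 libraries overlapped. It rose by a log2 fold change of 0.84 (SE 0.20, edgeR adjusted p = 0.0317; 0.77 and edgeR adjusted p = 0.003996 with E10.5 replicate 3 omitted) and then fell by 0.82 on the log2 scale (SE 0.15, edgeR adjusted p = 0.0066). From E10.5 to E12.5 the log2 fold change was 0.034 (SE 0.24, edgeR adjusted p = 0.938), and −0.039 with E10.5 replicate 3 omitted. The fall passed the test in all 15 alternative fits. The rise was lost without E10.5 replicate 2 (0.73, edgeR adjusted p = 0.1003) and without E11.5 replicate 1, 2 or 3, where edgeR's adjusted p was 0.145, 0.0924 and 0.103. Of the exon sequence of Bdnf, 14.4% overlaps Gm45346 on the other strand, and since the strand setting of the counting is not given in the sources used here, reads of the overlap cannot be assigned to either gene.

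To test whether the course bent at E11.5, the change in the second interval was compared with that in the first in a fit on all 9 libraries. The difference was −1.65 for Bdnf (SE 0.33, edgeR adjusted p = 0.0334), the only one of the 8 genes to pass, where 1.18% of all 16375 genes tested did (0.562% upward and 0.623% downward). It was weaker with the GC trend of each library removed (−1.55, edgeR adjusted p = 0.0603), and of the 9 fits with a library left out it passed only in those without E10.5 replicate 1, E10.5 replicate 3 or E12.5 replicate 2, with edgeR adjusted p-values of 0.0142 to 0.246 over the 9. For Ntf3 the difference was −0.020 (SE 0.30, edgeR adjusted p = 0.986). The other genes had differences of −1.64 (Ret), −1.13 (Gfra1), 1.01 (Ntrk3), 1.15 (Ntrk2), 1.39 (Ngfr) and 1.48 (Gdnf), none of which passed. Without E10.5 replicate 3, those of Ngfr (1.64, edgeR adjusted p = 0.00567) and Ret (−1.32, edgeR adjusted p = 0.0453) passed, and without E12.5 replicate 2 that of Gfra1 did (edgeR adjusted p = 0.0443).

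Gdnf, the ligand of the Gfra1 and Ret complex, was lowest at E11.5. It lies on the plus strand of chromosome 15, from 7810846 to 7837575 (ENSMUSG00000022144). The E10.5 libraries gave 4.69, 3.40 and 3.94 CPM, the E11.5 libraries 2.48, 2.43 and 3.08 CPM and the E12.5 libraries 4.17, 5.09 and 5.23 CPM. All E11.5 libraries lay below those of both other stages. The first difference, a log2 fold change of −0.61 (SE 0.23), did not pass (edgeR adjusted p = 0.132), nor did it with E10.5 replicate 3 omitted (−0.62, edgeR adjusted p = 0.0642). Over both intervals the log2 fold change was 0.26 (SE 0.26, edgeR adjusted p = 0.51), and 0.25 with that library omitted. The rise from E11.5 to E12.5 had a log2 fold change of 0.86 (SE 0.22, edgeR adjusted p = 0.0282). This rise was lost when any of 5 of the 6 libraries was omitted, namely any E11.5 library and E12.5 replicates 1 and 3, with edgeR adjusted p-values up to 0.123. With 46–94 counts per library, Gdnf was the least covered of the genes after Ntrk3.

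**Figure D2:**
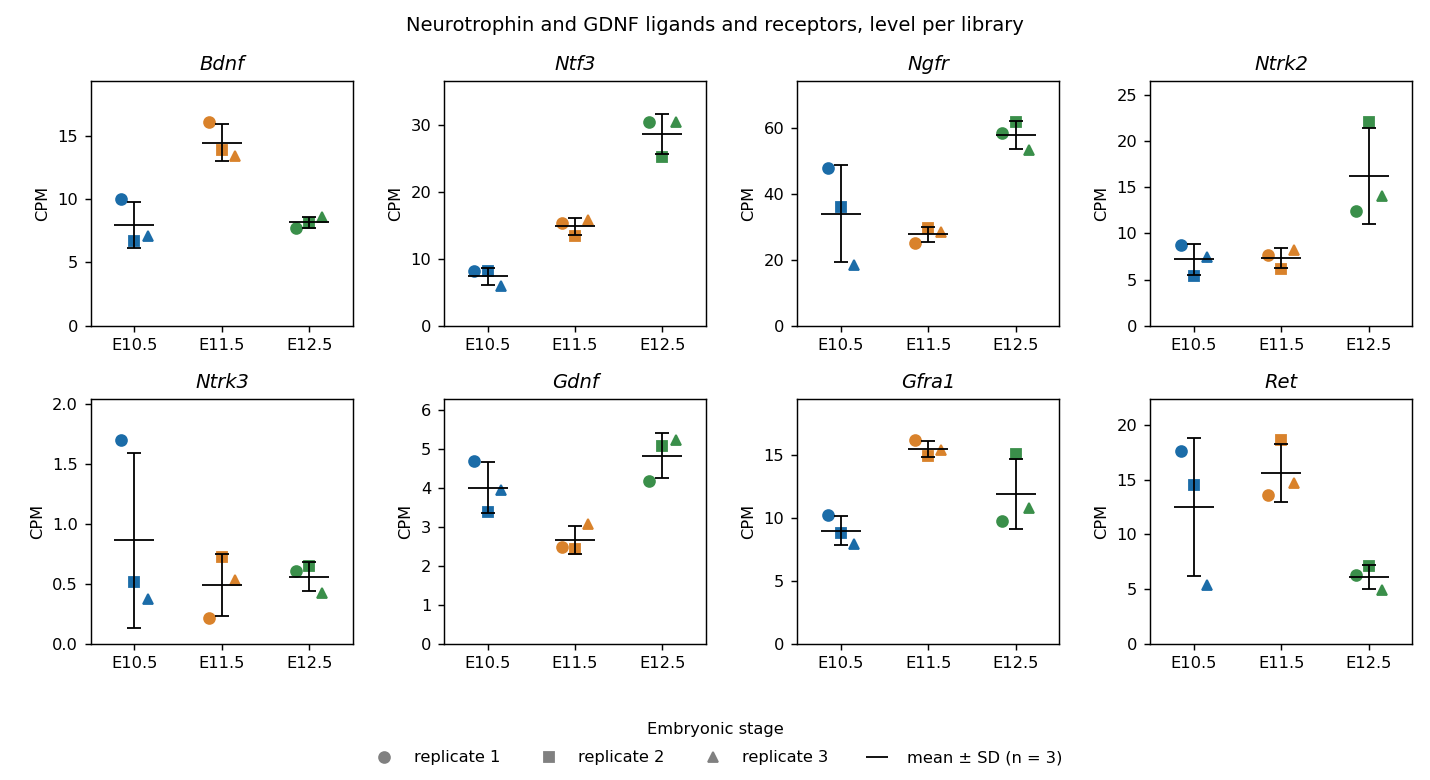
Level of each gene in CPM (y axis, from 0, a scale of its own in each panel) at each of the 3 stages (x axis). Each marker is 1 library, shaped by replicate number, and the black lines give the mean ± SD of 3 libraries; Bdnf is highest and Gdnf lowest at E11.5, Ntf3 steps up at each stage, and E10.5 replicate 3 (blue triangles) lies far below the other E10.5 libraries for Ngfr and Ret.

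Of the neurotrophin receptors, Ngfr and Ntrk2 rose from E11.5 to E12.5. Ngfr (ENSMUSG00000000120) lies on the minus strand of chromosome 11, from 95568818 to 95587735. Its level was 47.7, 35.9 and 18.5 CPM at E10.5, 25.2, 29.6 and 28.4 CPM at E11.5 and 58.4, 61.8 and 53.4 CPM at E12.5. The E12.5 libraries lay above all the others, and the E10.5 libraries spread widely, enclosing those of E11.5. In E12.5 vs. E11.5 the log2 fold change was 1.07 (SE 0.13, edgeR adjusted p = 4.996e-04), and it passed the test in all 15 alternative fits. It was just under a log2 fold change of 1 when E11.5 replicate 1 was omitted (0.99) and with the GC trend removed (0.92).

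The comparisons of Ngfr with E10.5 depended on single libraries. In E11.5 vs. E10.5 the log2 fold change was −0.32 (SE 0.30, edgeR adjusted p = 0.533), and without E10.5 replicate 3 Ngfr fell (−0.61, SE 0.12, edgeR adjusted p = 0.00154). Without E10.5 replicate 1 it was 0.0098 instead. In E12.5 vs. E10.5 the log2 fold change was 0.76 (SE 0.29), which did not pass (edgeR adjusted p = 0.0763). It passed in 7 of the 15 alternative fits, among them DESeq2 (0.75, adjusted p = 0.0439) and the fit without E10.5 replicate 1 (1.07, edgeR adjusted p = 0.0183), but not without E10.5 replicate 3 (0.47, edgeR adjusted p = 0.0713). Ngfr had the highest GC content of the genes (58.6% in its longest transcript), and in E10.5 replicate 3 it stood at a log2 ratio of −1.18 to the mean of the other E10.5 libraries. The other genes, at 40.9% to 51.4% GC, stood at ratios of −1.58 (Ntrk3, 43.6% GC) to 0.059 (Ntrk2, 48.6%). Ret (51.4%) stood at −1.57 and Gdnf (50.8%) at −0.036. The part of GC content in these ratios was not tested for the single library.

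Ntrk2 (ENSMUSG00000055254) lies on the plus strand of chromosome 13, from 58806569 to 59133970. The E10.5 libraries gave 8.79, 5.41 and 7.39 CPM and the E11.5 libraries 7.66, 6.16 and 8.17 CPM, which overlap (log2 fold change 0.0066, SE 0.23, edgeR adjusted p = 0.989). At E12.5 the level was 12.4, 22.1 and 14.1 CPM, above every earlier library. The log2 fold change was 1.15 (SE 0.23, edgeR adjusted p = 0.00865) from E11.5 and 1.16 (SE 0.28, edgeR adjusted p = 0.0121) from E10.5. Both rises passed the test in all 15 alternative fits. With E10.5 replicate 3 omitted, the log2 fold changes from E10.5 were 0.024 at E11.5 and 1.19 at E12.5. The size of the rises rested in part on E12.5 replicate 2, without which the log2 fold changes were 0.86 and 0.88. Without E10.5 replicate 2 the rise from E10.5 was also under the fold-change threshold.

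Ntrk3, which encodes the receptor of the Ntf3 product, was barely detected. It lies on the minus strand of chromosome 7, from 78175959 to 78738012 (ENSMUSG00000059146). It had 29, 9 and 6 counts in the E10.5 libraries, 4, 15 and 10 in the E11.5 libraries and 11, 12 and 7 in the E12.5 libraries, which is at most 1.70 CPM. All stages overlapped, and the highest and the second lowest library were both from E10.5. Its counts were too low to be tested in E11.5 vs. E10.5. The log2 fold changes of 0.18 (SE 0.50, edgeR adjusted p = 0.831) in E12.5 vs. E11.5 and −0.62 (SE 0.60, edgeR adjusted p = 0.492) in E12.5 vs. E10.5 did not pass, the latter being −0.97 (edgeR adjusted p = 0.227) with E10.5 replicate 3 omitted, and no difference was detectable at this depth.

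In the GDNF receptor complex, Gfra1 rose early and Ret fell late. Gfra1 (ENSMUSG00000025089) lies on the minus strand of chromosome 19, from 58235604 to 58455909. It was measured at 10.2, 8.80 and 7.95 CPM at E10.5, 16.2, 14.9 and 15.4 CPM at E11.5 and 9.78, 15.04 and 10.8 CPM at E12.5. The E11.5 libraries lay above all E10.5 libraries, and E12.5 replicate 2 lay among the E11.5 libraries while the other E12.5 libraries lay below them. The rise in E11.5 vs. E10.5 had a log2 fold change of 0.77 (SE 0.15, edgeR adjusted p = 0.0179). It was lost when any of the 3 E11.5 libraries or E10.5 replicate 2 was omitted, with edgeR adjusted p-values of up to 0.0952, and it held when E10.5 replicate 3 was omitted (0.68, edgeR adjusted p = 0.00148). Between E11.5 and E12.5 the log2 fold change was −0.38 (SE 0.18, edgeR adjusted p = 0.181), and without E12.5 replicate 2 it was −0.59 (edgeR adjusted p = 0.0114). Over both intervals it was 0.40 (SE 0.24, edgeR adjusted p = 0.254), and 0.32 with E10.5 replicate 3 omitted. Of the exon sequence of Gfra1, 7.60% overlaps Gm16277 on the other strand, with the same limit as for Bdnf.

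Ret (ENSMUSG00000030110) lies on the minus strand of chromosome 6, from 118151745 to 118197718. Its level was 17.6, 14.5 and 5.42 CPM at E10.5, 13.6, 18.6 and 14.7 CPM at E11.5 and 6.34, 7.09 and 4.93 CPM at E12.5. Every E12.5 library lay below every E11.5 library, and E10.5 replicate 3 lay among the E12.5 libraries. The log2 fold change in E12.5 vs. E11.5 was −1.35 (SE 0.19, edgeR adjusted p = 0.00151), and the fall passed the test in all 15 alternative fits, with log2 fold changes of −1.47 to −1.22 when a library was left out. In E12.5 vs. E10.5 it was −1.04 (SE 0.38, edgeR adjusted p = 0.0683), which did not pass. Without E10.5 replicate 3 Ret fell there too (−1.39, SE 0.22, edgeR adjusted p = 0.00138), as it did with DESeq2 on all 6 libraries (−1.05, adjusted p = 0.0251). In E11.5 vs. E10.5 the log2 fold change was 0.30 (SE 0.37, edgeR adjusted p = 0.65), and −0.057 without E10.5 replicate 3. In that library Ret stood at a log2 ratio of −1.57 to the mean of replicates 1 and 2, and the summed endothelial markers at −1.33. The single endothelial markers differed in this. Over the 3 E10.5 libraries Cdh5 spanned 20.9–92.4 CPM, whereas Emcn spanned only 23.9–27.7 CPM and so was not low in any of them. The part of cell composition in the level of Ret was not tested. In these bulk libraries, fewer cells of a type and less RNA per cell cannot be told apart.

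**Figure D3:**
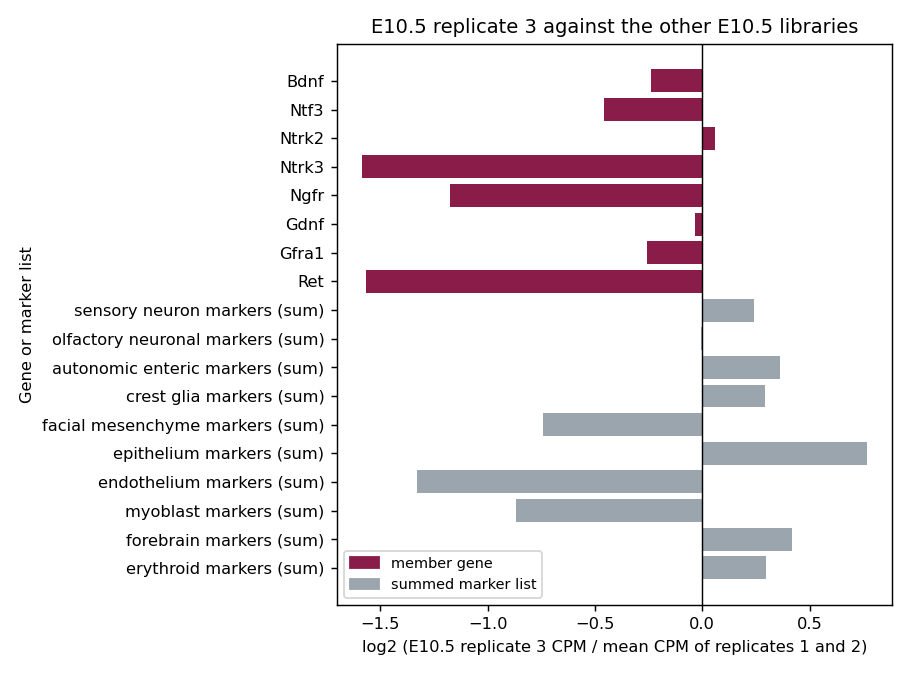
Log2 ratio of the CPM in E10.5 replicate 3 to the mean CPM of E10.5 replicates 1 and 2 (x axis) for the 8 genes and for the summed CPM of each marker list (y axis). Ntrk3 (−1.58), Ret (−1.57) and Ngfr (−1.18) were far lower in replicate 3, as were the summed endothelial markers (−1.33), while Ntrk2 (0.059) and Gdnf (−0.036) were near 0.

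Levels can be compared between genes only per length, for which the deposited FPKM values were used. At E10.5 the order was Ngfr (9.86 ± 4.25 FPKM, SD, n = 3 libraries), Ntf3 (4.31 ± 0.751), Ret (1.85 ± 0.937), Gfra1 (1.64 ± 0.205), Bdnf (1.27 ± 0.289), Gdnf (1.09 ± 0.173), Ntrk2 (0.372 ± 0.0867) and Ntrk3 (0.0285 ± 0.024). The range of Ret (0.80–2.60 FPKM) enclosed those of Gfra1, Bdnf and Gdnf, but with E10.5 replicate 3 omitted Ret (2.15 and 2.60 FPKM) lay above Gfra1 (1.61 and 1.85). Gfra1 also overlapped Bdnf, and Bdnf overlapped Gdnf. At E11.5 Ntf3 (8.52 ± 0.72 FPKM) and Ngfr (7.91 ± 0.636) led and overlapped. They were followed by Gfra1 (2.78 ± 0.125), Bdnf (2.28 ± 0.236) and Ret (2.27 ± 0.38), where the range of Ret overlapped those of Gfra1 and Bdnf, and then by Gdnf (0.713 ± 0.0962). At E12.5 Ngfr (16.5 ± 1.25 FPKM) and Ntf3 (16.5 ± 1.74) again led and overlapped, followed by Gfra1 (2.14 ± 0.499), Gdnf (1.29 ± 0.149) and Bdnf (1.29 ± 0.0631), of which Gdnf and Bdnf overlapped. Ret had moved to the 6th place (0.891 ± 0.161 FPKM) and overlapped Ntrk2 (0.827 ± 0.262), whose highest library (1.13 FPKM) also reached the lowest of Gdnf (1.12). The receptor kinases Ntrk2 and Ntrk3 were in the last 2 places at every stage. Their gene models are long (19292 and 30170 bases), and FPKM divides by this whole length, so an expressed short isoform is understated. The level of Ntrk3 in E12.5 libraries was 0.0137–0.0212 FPKM, where that of Ntf3 was 14.5–17.6 FPKM.

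**Figure D4:**
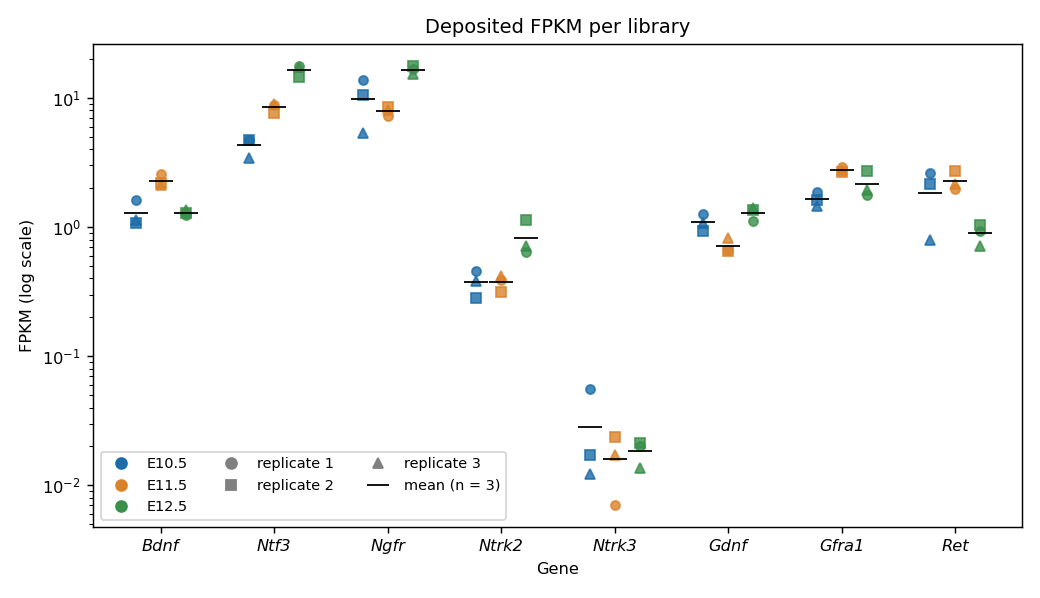
Deposited FPKM (y axis, log scale) of the 8 genes (x axis), where each marker is 1 library, coloured by stage and shaped by replicate, and black lines give the mean of 3 libraries. Ntf3 and Ngfr are the most abundant at every stage, at a mean of 16.5 FPKM each at E12.5, and Ntrk3 is lowest at every stage, with means of 0.016 to 0.0285 FPKM.

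The other neurotrophin genes were followed as a list of 12 ligands, co-receptors, adaptors and processing factors, all of which were tested. From E10.5 to E11.5 none rose and 1 fell, in the second interval 2 rose and none fell, and over both intervals 2 rose and 1 fell, where 6.19%, 7.61% and 14% of all genes rose and 5.58%, 4.57% and 10.5% fell. The median log2 fold change was 0.11, 0.18 and 0.15. Rtn4r and Lingo1, which encode partners of p75 in the Nogo receptor complex, rose in E12.5 vs. E11.5 with log2 fold changes of 1.72 (SE 0.30) and 0.96 (SE 0.24). Rtn4r was at 0.863–3.19 CPM in the E10.5 and E11.5 libraries and at 8.95, 6.33 and 6.19 CPM at E12.5, and Lingo1 at 1.91–5.201 and then at 9.72, 9.47 and 5.89 CPM. For both genes every E12.5 library lay above all earlier ones. Sorcs1, a sorting receptor of the Vps10 family, fell in E11.5 vs. E10.5 (−2.14, SE 0.39, and −1.91 with E10.5 replicate 3 omitted). Its later changes did not pass. They were 1.4 (SE 0.44, edgeR adjusted p = 0.0635) in E12.5 vs. E11.5 and −0.74 (SE 0.38, edgeR adjusted p = 0.1785) in E12.5 vs. E10.5. Sort1 encodes sortilin, the co-receptor of p75 for proneurotrophins. It fell in E12.5 vs. E10.5 (−0.77, SE 0.20, and −0.75 with E10.5 replicate 3 omitted) and was named after its values were seen. Without E10.5 replicate 3, 1 gene of the list rose and 3 fell in E11.5 vs. E10.5. Omitting that library also raised the DEGs among all genes, from 954 of 15708 tested to 1592 of 16263 in this comparison. In E12.5 vs. E10.5 they went from 2392 of 15899 to 2738 of 16501. Counts of list genes without that library, here and below, therefore cannot be set against the shares from all libraries.

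Of 10 other GDNF family ligands, receptors and related genes, 3 of 8 tested rose in the first interval, 5 of 7 in the second and 5 of 8 over both, where 6.19%, 7.61% and 14% of all genes rose, and none fell. The same counts of rises were found without E10.5 replicate 3 in both comparisons that include it. The median log2 fold change over the genes tested was 0.52, 0.95 and 1.64. Gfra3, the co-receptor of artemin in sensory neurons, rose from 0.416 ± 0.121 CPM through 1.98 ± 0.387 to 3.79 ± 0.574 CPM (SD, n = 3 libraries each), and Gfra4, the persephin co-receptor, from 3.11 ± 0.864 through 7.52 ± 1.28 to 13.4 ± 2.54 CPM. Their log2 fold changes over the whole span were 3.17 (SE 0.38) and 2.10 (SE 0.28), or 3.20 and 1.94 with E10.5 replicate 3 omitted. The neurturin gene Nrtn and its co-receptor gene Gfra2 rose in E12.5 vs. E11.5, by log2 fold changes of 1.53 (SE 0.26) and 1.14 (SE 0.27). Nrtn was at 4.13–6.45 CPM in the E10.5 and E11.5 libraries together, and at 15.1, 9.58 and 20.6 CPM at E12.5. Ncam1, which encodes an alternative GDNF receptor, rose in both intervals (1.43, SE 0.18, and 1.07, SE 0.16). The artemin gene Artn was at 1.38–3.29 CPM throughout, with a log2 fold change of −0.69 (SE 0.33, edgeR adjusted p = 0.185) in E12.5 vs. E11.5. Over the second interval, 3 co-receptor genes of the family (Gfra2, Gfra3 and Gfra4) rose, while the shared kinase gene Ret fell. The GDNF co-receptor gene Gfra1 did not rise (−0.38, edgeR adjusted p = 0.181).

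**Figure D5:**
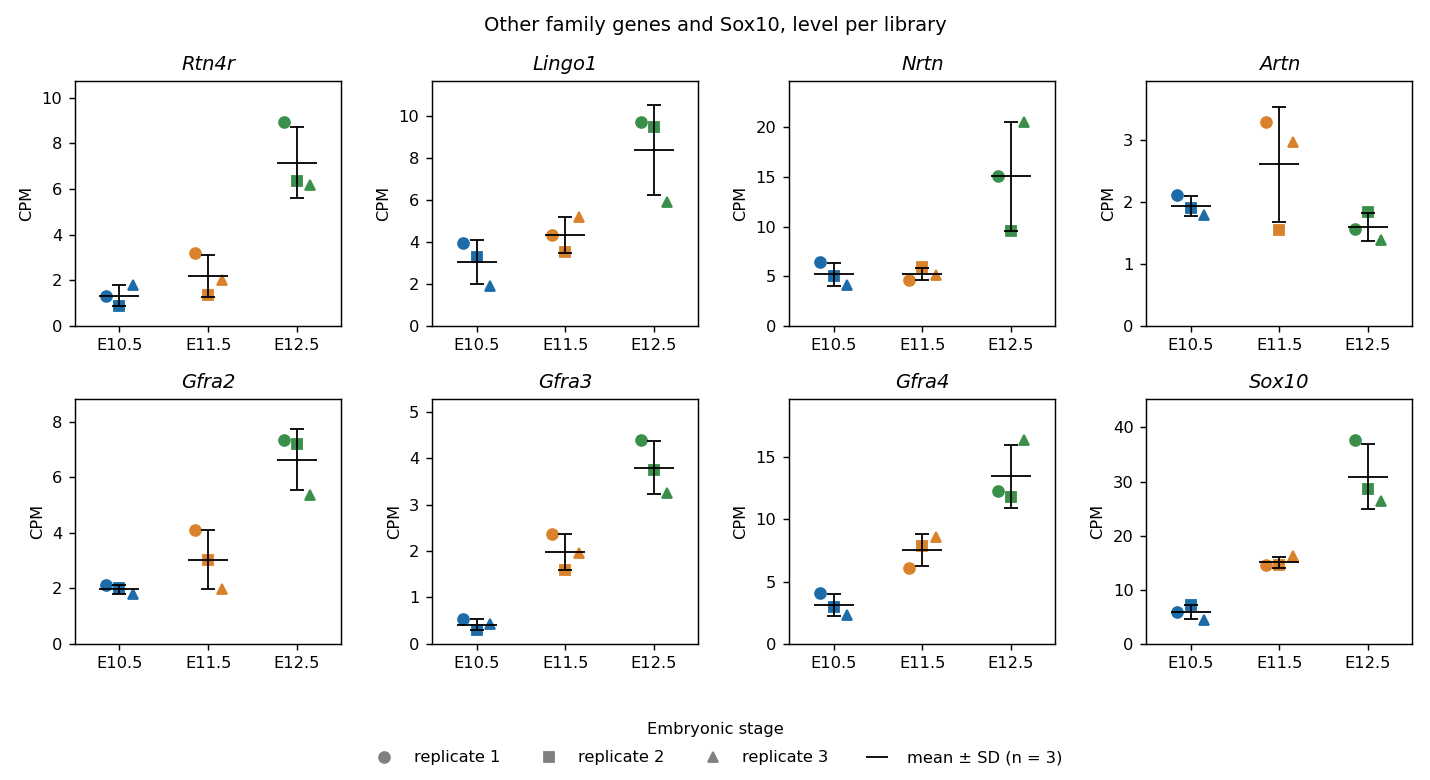
Level in CPM (y axis, from 0, a scale of its own in each panel) of 7 other family genes and of Sox10 at the 3 stages (x axis), with 1 marker per library shaped by replicate and black lines for the mean ± SD of 3 libraries. Gfra3, Gfra4 and Sox10 step up at each stage, and Rtn4r, Lingo1 and Nrtn are highest in the E12.5 libraries.

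Of 19 shared adaptors of Trk and Ret kinases, none passed the test in E12.5 vs. E11.5 (18 tested, 3 at an unadjusted p under 0.05), 2 fell in E11.5 vs. E10.5, and 1 rose and 4 fell in E12.5 vs. E10.5, where 12.2%, 11.8% and 24.6% of all genes passed in either direction. The DEGs were Dok5, which encodes an adaptor that binds Ret, with log2 fold changes of −1.11 (SE 0.22) in E11.5 vs. E10.5 and −1.48 (SE 0.26) in E12.5 vs. E10.5, and Shc3, which encodes a neuronal Shc adaptor, with −1.36 (SE 0.28) and −1.36 (SE 0.33). Without E10.5 replicate 3, where more of all genes were DEGs too, 1 adaptor gene rose and 5 fell in each of these comparisons. Dok5 was then under the fold-change threshold at E11.5 (−0.85, SE 0.15). Of 7 genes that report ERK signalling, which these kinases share with FGF receptors, 1 rose in E11.5 vs. E10.5, 4 fell in the second interval and 3 fell over both, none of them a DEG. Those of the second interval were Etv4 (−0.98, SE 0.15), Etv5 (−0.86, SE 0.13), Etv1 (−0.75, SE 0.14) and Dusp6 (−0.39, SE 0.11), which were named after their values were seen. Without E10.5 replicate 3, 2 of the 7 rose from E10.5 to E11.5 and none fell, and over both intervals Etv4 (−1.09, SE 0.17) and Etv5 (−1.03, SE 0.17) were DEGs. Ret, too, fell between E11.5 and E12.5, and whether that fall is related to those of the ERK genes was not tested.

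Markers of the cells that these receptors are known from were set beside their values. Neural crest glia is a site of Ngfr expression, and of its 8 markers 4 rose and none fell in E12.5 vs. E11.5. In this comparison 7.61% of all genes rose and 4.57% fell. The markers summed to 85.1–92.0 CPM at E11.5 and 92.7–128 CPM at E12.5. Erbb3, the largest part of this sum (means of 57.8 and 51.2 CPM), did not rise (−0.17, edgeR adjusted p = 0.558). Sox10, the defining factor of crest glia, rose from 15.1 ± 1.03 to 30.9 ± 5.96 CPM (SD, n = 3 libraries each). In the first interval, 2 of 7 tested glial markers rose (Sox10, 1.35, and Cdh19, 1.18) and 1 fell (Fabp7, −1.99), beside 6.19% and 5.58% of all genes. The log2 fold change of Ngfr there was −0.32 and did not pass. Without E10.5 replicate 3, 3 glial markers rose and 1 fell from E10.5 to E11.5, and Ngfr fell (−0.61). Sensory neurons express Trk receptors and Ret, and their 9 markers summed to 173–189 CPM at E11.5 and 257–310 CPM at E12.5, with 2 rising (Stmn2 and Prph) and 1 falling (Isl1) of 7 tested. The defining trigeminal factors were low, with Pou4f1 at most 1.60 CPM and Prrxl1 at most 0.167 CPM in any library. Autonomic and enteric crest cells express Ret. Their 4 markers summed to 4.75–6.16 CPM at E10.5, 2.38–3.29 CPM at E11.5 and 1.19–1.67 CPM at E12.5. The sum was lower in every E12.5 than in every E11.5 library, and lower in every E11.5 than in every E10.5 library. It came almost wholly from Th and Chrna3. The log2 fold change of Ret was 0.30 from E10.5 to E11.5 and −1.35 from E11.5 to E12.5. In E10.5 replicate 3 the sum was 6.16 CPM and Ret was at 5.42 CPM. Of the 4 markers, Th fell from E10.5 to E11.5, Phox2a was at most 0.318 CPM, and Dbh was at 0 in every E10.5 and E11.5 library. Chrna3 was at 0.974–2.77 CPM in all libraries. It was the only 1 tested in E12.5 vs. E11.5 and did not pass (edgeR adjusted p = 0.0795). Endothelial markers, of which 6 were tested, gave no gene past edgeR's adjusted p-value in any comparison (median log2 fold change −0.056 between E11.5 and E12.5, with 2 of 6 at an unadjusted p under 0.05), while without E10.5 replicate 3, 1 rose and 2 fell from E10.5 to E11.5. The part of these cell types in the changes of Ngfr, Ntrk2 and Ret was not tested.

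The genes whose course was most like that of each gene were found by Pearson's correlation of log2 CPM over the 9 libraries, among 14504 genes with a mean of at least 1 CPM. These values describe libraries that share their stages, and the highest of so many correlations are high by selection. Ntf3 was most like C1qtnf6 (r = 0.998), Efemp2 (0.996) and Aplp1 (0.994). The genes most like Bdnf were Pmaip1 (0.979), which encodes the pro-apoptotic protein Noxa, Foxp2 (0.925) and Tmem220 (0.924). For Gdnf they were Maf (0.985), Gm26982 (0.954) and Acta2 (0.938) and for Ntrk2 Reln (0.97), Kat2b (0.961) and Tmem177 (0.956). Genes most like Ngfr included Begain (0.961) and Spryd3 (0.95). Gfra1 was most like Slc8a1 (0.979), Frmd6 (0.977) and Dcaf8 (0.974). Ret was most like Fli1 (0.975), which encodes an Ets factor of endothelial and blood cells, followed by Stra6 (0.959) and Ank1 (0.954). The correlations of Ntrk3, with Colec12 highest (0.903), rest on its few counts.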

How the data were processed

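RNA-seq of 9 libraries was grouped by stage from the sample titles. The authors mapped reads to mm10 with HISAT2 (version 2.0.5) and deposited read counts per gene from featureCounts, without normalization. The deposited FPKM values, which the authors derived from counts and gene length, served only to compare genes with each other. Columns of the authors' own comparisons (group means, fold changes and p-values from DESeq2) were not used. Strand and multi-mapping settings are not given in the sources used here. Reads were counted without molecular identifiers. Depth was 16581009–20836804 counts.

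Stages were compared in pairs, as in the study, with edgeR 4.0.16 under R 4.3.3 (filterByExpr, TMM, glmQLFit, glmQLFTest, Benjamini-Hochberg). Standard errors were derived from the log2 fold change and F. The change of pace between intervals was a contrast over the 9 libraries. An exact permutation test of 3 against 3 libraries cannot pass the threshold, so the tests rest on the spread pooled across genes. Scripts were tested on simulated data. The coordinates in the table (GRCm38) matched GENCODE vM21 for 98.33% of identifiers found there, which supplied exon overlap and GC content.

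Members and lists were chosen with earlier results of these data known. The 8 members are named throughout, of each pathway list at most the 5 DEGs with the smallest p-values, Nrtn, Artn, Gfra2 and Gfra3 in any case, and up to 3 genes most like each member. Some items are not reported here and were left out of the lists before counting. The 10 marker lists cover sensory, olfactory and autonomic neurons, crest glia, mesenchyme, epithelium, endothelium, myoblasts, forebrain and erythroid cells. Alternatives were size factors of DESeq2, upper quartile scaling, DESeq2 1.42.0, looser and stricter count filters (1 count in total, 10 counts in each library), 1 fit for the 9 libraries, a replicate block, removal of the GC trend (lowess, span 0.3) with or without that block, omission of single libraries, and no fold-change threshold. List counts and the values of list genes without E10.5 replicate 3 were added after the data had been seen. Replicates differed beyond counting noise (chi-square over degrees of freedom, 4.34–66.1) and were all kept.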

Additional observations from a re-analysis of the deposited data

Results flagged for a closer look

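The change of Bdnf in E12.5 vs. E11.5 differed from its change in E11.5 vs. E10.5 by −1.65 on the log2 scale (SE 0.33, adjusted p = 0.0334 by edgeR's quasi-likelihood test over 16375 genes). It stands out because the difference between the intervals was itself tested and passed, with all 3 E11.5 libraries (13.4–16.1 CPM) above all 6 libraries of the other stages (6.68–10.02 CPM). It no longer passed with the GC trend removed (edgeR adjusted p = 0.0603) or when any of 6 of the 9 libraries was omitted.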

How the results depend on the processing

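Of 478 alternative values of single members, 417 kept their direction and their side of the adjusted p-value, 22 lost and 21 gained significance and 18 changed sign. The falls of Bdnf and Ret and the rises of Ntf3, Ntrk2 and Ngfr in E12.5 vs. E11.5, and the rises of Ntf3 and Ntrk2 in E12.5 vs. E10.5, passed the test in all 15 alternatives each. Without the fold-change threshold, 3 members in the first interval and 6 in the second were called, and 1849, 1926 and 3906 of all genes in the first interval, the second and both together, against 954, 806 and 2392 DEGs. When a library was left out, the DEGs among the members numbered 0 to 2, 2 to 3 and 1 to 3, and those among all genes 395 to 1592, 502 to 1181 and 1895 to 2738, in the same order. The 2 in the first interval were Bdnf and Ntf3, without E10.5 replicate 1. Over all genes, omitting E11.5 replicate 1 left 395 DEGs in the first interval, omitting E11.5 replicate 3 left 453 and omitting E10.5 replicate 3 gave 1592. In the second interval, omitting E11.5 replicate 2 left 502 and omitting E12.5 replicate 1 left 512. The members whose change differed between the intervals numbered 3 with all genes of at least 1 count (Bdnf, Ngfr and Ret), 0 with the GC trend removed, and 0 to 3 when a library was left out, against 1. The causes were not tested.

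Sign changes concerned values that had not passed the test. Ntrk2 in E11.5 vs. E10.5 was −0.0038 with the GC trend removed and −0.17 to 0.18 when a library was left out. The corresponding ranges were −0.61 to 0.0098 for Ngfr and −0.057 to 0.63 for Ret in that comparison, −0.17 to 0.57 for Ntrk3 in E12.5 vs. E11.5, and −0.082 to 0.23 for Bdnf and −0.97 to 0.32 for Ntrk3 in E12.5 vs. E10.5. The difference between the intervals of Ntf3 (−0.020) was 0.0029 with upper quartile normalization, 0.022 with the GC trend removed, 0.018 with the GC trend removed and the replicate block, and −0.15 to 0.076 when a library was left out.

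Whether the replicate numbers pair the libraries was not settled. Same-numbered libraries correlated in their deviations from the stage means at −0.0104 to 0.0216 for E10.5 with E11.5 and −0.151 to 0.0741 for E11.5 with E12.5. In these pairs of stages not every library correlated best with its own number. For E10.5 with E12.5 the correlations were 0.0701 to 0.221, and each E12.5 library correlated best with the E10.5 library of its own number. E10.5 replicate 2, however, correlated better with E12.5 replicate 1 (0.153). With the replicate number as a block, there were 875, 887 and 2474 DEGs in the first interval, the second and both together, and among the members 0, 3 and 2. Over both together, Ngfr (0.86, edgeR adjusted p = 0.0205) and Ret (−0.91, edgeR adjusted p = 0.0381) passed the test with the block. Depth limits Ntrk3 most, with 4 to 29 counts per library.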

Other observations

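Further values of the marker lists were as follows. Olfactory neuronal markers summed to 136–142 CPM in the E10.5 libraries, 141–146 CPM in those of E11.5 and 179–224 CPM in those of E12.5, and of the 6, Gap43, a growth cone protein gene, rose in both intervals (log2 fold change 0.87, SE 0.13, and 0.70, SE 0.15). Lhx2, from the same list, fell in E11.5 vs. E10.5 (−1.23, SE 0.11, and −1.19 without E10.5 replicate 3). In that comparison 4 of the 5 forebrain markers fell as well, and whether the fall of Lhx2 belongs to olfactory cells was not tested. Of the autonomic and enteric markers, Th, which encodes tyrosine hydroxylase, fell in E11.5 vs. E10.5 (−2.71, SE 0.48, and −2.34 without E10.5 replicate 3). Of the 4 myoblast markers, Pax7 made up nearly all of the summed 39.9–117 CPM and fell in E12.5 vs. E11.5 (−0.60, SE 0.14). Of the 5 forebrain markers, 4 fell in E11.5 vs. E10.5, where 5.58% of all genes fell. The markers that fell were Rax (−7.42, SE 1.07), Sox1 (−6.22, SE 0.41), Sox2 (−1.30, SE 0.155) and Six3 (−0.83, SE 0.17). Without E10.5 replicate 3 the same genes gave −7.60, −6.07, −1.14 and −0.63. The remaining forebrain marker, Emx2, did not pass (0.44, edgeR adjusted p = 0.184) but rose without that library (0.52). Of the 5 erythroid markers, 4 fell in E12.5 vs. E11.5, beside 4.57% of all genes. Hbb-bh1, an embryonic globin gene, was at −1.98 (SE 0.18) there. Of the 8 facial mesenchyme markers, 4 rose and none fell from E10.5 to E11.5, or 6 and 2 without E10.5 replicate 3. In the next interval none rose and 1 fell. With all libraries, 6.19% of all genes rose and 5.58% fell in the first interval, and 7.61% and 4.57% in the second. Of the 7 epithelial markers, Krt5 and Krt14, keratins of stratified epithelium, rose in both intervals, while Krt8 (−0.86, SE 0.19) and Krt18 (−1.03, SE 0.22), keratins of simple epithelium, fell in E11.5 vs. E10.5 (−0.64 and −0.74 without E10.5 replicate 3). These genes were chosen from their lists after their values were seen.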
